A study of Homo sapiens with 5 samples.

Results

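The ENO1 locus was described here as a window of 60 kb on chromosome 1, from position 8900000 to 8960000 of the human genome build hg19, in which every ChIP-seq summit of the series was taken as a member. The window held 22 of the 209263 summits in the 5 deposited lists. They were 8 of 29429 in the H3K27ac list of control cells, 9 of 31839 in the H3K27ac list after knockdown, 3 of 122439 and 2 of 24611 in the corresponding KAT7 lists, and none of 945 in the input list. The cells were HCT116, a human colorectal cancer line, collected 48 h after they had received either control siRNA or siRNA directed at the noncoding RNA ENO1-IT1. Chromatin was immunoprecipitated with an antibody to histone H3 acetylated at lysine 27 (H3K27ac) or to the acetyltransferase KAT7, and the input DNA had no antibody and no siRNA named in its label. There was 1 library per group, so no value could be set against replicate error and no test was possible. Differences below describe these libraries. The groups rest on the sample titles. Peak names in all 5 files, control files included, start with a code in KO and name no siRNA, and exchanged titles would turn each direction between control and knockdown.

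ENO1 encodes enolase 1, the glycolytic enzyme that turns 2-phosphoglycerate into phosphoenolpyruvate, and it is strongly expressed in most proliferating cells. ENO1-IT1 is a noncoding RNA from inside the same gene, so the siRNA was directed at a transcript of the locus described here. H3K27ac marks active promoters and enhancers and is often found on the nucleosomes just downstream of the start of a transcribed gene. KAT7, also called HBO1, is a MYST-family enzyme that acetylates histones H3 and H4 in complexes with scaffold proteins such as BRPF and JADE proteins.

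The hg19 extent used for ENO1 ran from 8921059 to 8939151 on the minus strand, 18093 bp, so the 5′ end of the gene lay at the higher coordinate. No hg19 exon map was used here, and summits were therefore placed by distance from the ends of the gene and not assigned to exons or introns, nor to ENO1-IT1. In RefSeq for GRCh38.p14 the gene measured 17687 bp, 406 bp less. The end at which the models differ was not known, so a summit less than that far inside the 5′ end could fall outside the shorter model. In RefSeq order by start coordinate, ENO1 was followed by the microRNA gene MIR6728, then by ENO1-AS1. The next protein-coding gene in this order was CA6, which encodes a carbonic anhydrase. Such an order does not tell whether a listed gene lies inside ENO1 or beyond it. RefSeq has no separate entry for ENO1-IT1 and gives the name as a synonym of ENO1.

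The promoter of ENO1 is printed because the summits with the highest H3K27ac scores of the window, in either condition, lay within 1341 bp of the 5′ end. The stretch is the 250 bases before the RefSeq start, in GRCh38.p14 at chr1:8878687-8878936, minus strand, read 5′ to 3′. These coordinates belong to another build than the summits and cannot be set beside them. Capitals mark matches to the motifs searched.
ENO1 promoter: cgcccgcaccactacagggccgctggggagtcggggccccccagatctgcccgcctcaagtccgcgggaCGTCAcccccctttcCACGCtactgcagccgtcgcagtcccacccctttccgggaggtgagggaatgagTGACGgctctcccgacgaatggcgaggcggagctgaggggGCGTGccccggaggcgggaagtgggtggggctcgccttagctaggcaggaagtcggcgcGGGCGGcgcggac
The motifs, searched on both strands, were GGGCGG (bound by SP and KLF factors), the CCAAT box, the TATA box as TATAAA, the E-box CACGTG, the shorter ACGTG that the E-box contains, GCGTG (like the former a core of hypoxia response elements) and TGACG (a core of cyclic AMP response elements). GGGCGG was found at 1 place, beginning 13 bases before the start, and 42.6% of 35116 RefSeq promoters held it in the same 250 bases. GCGTG was found at 2 places, beginning 166 and 72 bases before the start, and was in 32.2% of promoters. TGACG was likewise found at 2 places, at 181 and 112 bases, and was in 21.2% of promoters. The letters of the other motifs were not in this window. CCAAT was in 32% of promoters and TATAAA in 10.7%. CACGTG was in 6.34% and ACGTG in 18.5%. The stretch had a GC content of 72% and 27 CpG dinucleotides, against medians of 58% and 11 over all promoters, and 17.7% of promoters had as many CpGs. The start of the antisense RNA gene ENO1-AS1 faces that of ENO1. Their RefSeq promoter windows, here with 250 bases before and 50 after the start, shared 248 bases of the same DNA read from opposite strands.

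Within the window the summits fell into 4 stretches more than 5000 bp apart. A stretch of 6032 bp at the 5′ end of ENO1 held 10 of the 22, of which 9 were inside the gene and 1 was 195 bp upstream. A stretch 10441 to 12102 bp upstream held 5, another 19634 to 20707 bp upstream held 4, and a single site past the 3′ end held 3. The remaining 12256 bp of the gene, 67.7% of its length at the 3′ side, held no summit of any list. The nearest input summit was at 2629280, at least 6274877 bp from each member.

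**Figure D1:**
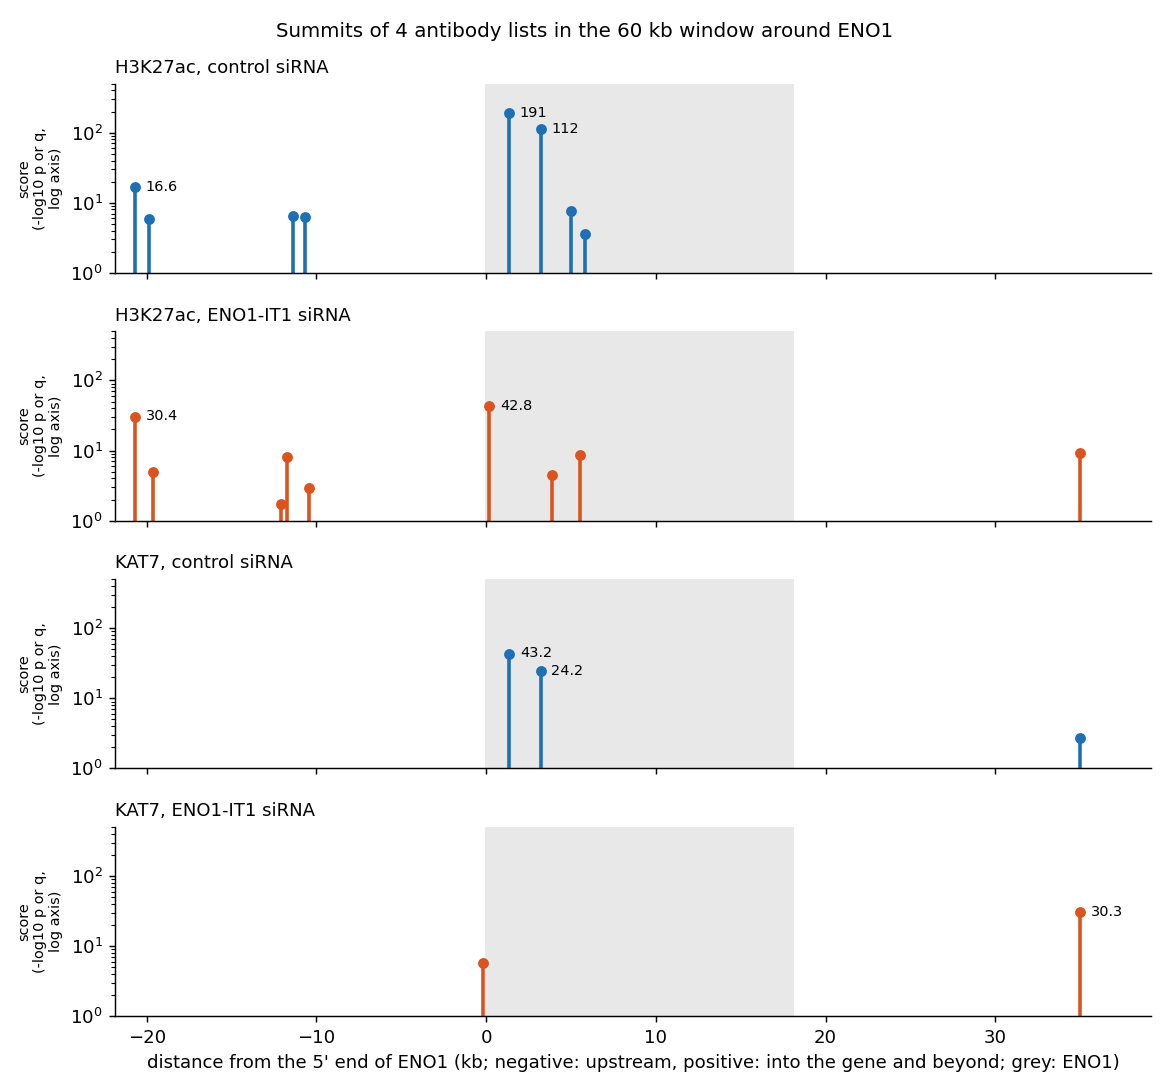
Summits in the 60 kb window, with 1 panel for each antibody list; the horizontal axis gives distance from the 5′ end of ENO1 in kb (negative upstream, grey the extent of the gene) and the vertical axis the score of each summit on a log axis, which is not on 1 scale between lists. In each control panel the tallest summits are a pair inside the gene (191 and 112 for H3K27ac, 43.2 and 24.2 for KAT7), and the site at the right edge is in 3 of the 4 panels.

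In control cells both marks were listed at the same positions inside ENO1, and the highest scores of the window were there. The score is a -log10 p or q value given by the authors' peak caller to each summit, and it ranks summits within a list only. The control H3K27ac summit at 8937810 lay 1341 bp inside the gene from its 5′ end and had a score of 191, rank 25 of 29429. The next, at 8935949, lay 3202 bp inside and had a score of 112, rank 71. Control KAT7 summits were at 8937804, with a score of 43.2 and rank 99 of 122439, and at 8935948, with a score of 24.2 and rank 450. The marks were thus 6 bp and 1 bp apart, and the distance from one position to the next was 1861 bp for H3K27ac and 1856 bp for KAT7. Of the control H3K27ac list 99.9% and 99.8% scored lower than these summits, and of the control KAT7 list 99.9% and 99.6%. Further into the gene were 2 H3K27ac summits of ordinary rank and without KAT7, at 8934170 (score 7.49, 4981 bp inside) and 8933315 (score 3.53, 5836 bp inside).

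After ENO1-IT1 knockdown neither of these positions had a summit of either mark within 500 bp, and H3K27ac was listed closer to the 5′ end. The knockdown H3K27ac summit at 8938973 lay 178 bp inside the gene, with a score of 42.8 and rank 924 of 31839. A knockdown KAT7 summit was at 8939346, 195 bp upstream of the 5′ end and 373 bp from that H3K27ac summit, with a score of 5.72 and rank 18361 of 24611. The knockdown lists thus had H3K27ac just inside and KAT7 just outside the 5′ end of the extent used. The control lists had no summit within 1000 bp of that end, and their nearest was 1341 bp inside it. The 406 bp between gene models is a difference in length, and the end it falls at was not known here. A 5′ end up to 406 bp further in could leave the H3K27ac summit outside the gene, and the KAT7 summit would stay upstream. Such an end would also lie nearer to the control summits. The control summit nearest to 8938973 was the one at 8937810, 1163 bp away. The 2 other knockdown H3K27ac summits inside ENO1 were at 8935290 (score 4.5, 659 bp from the control summit at 8935949) and at 8933635 (score 8.74, 320 bp from the control summit at 8933315). No knockdown KAT7 summit lay inside the gene, against 2 in the control. The 5′ part of the gene was therefore listed for H3K27ac in both conditions, with 4 control and 3 knockdown summits, but the strongest positions differed.

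**Figure D2:**
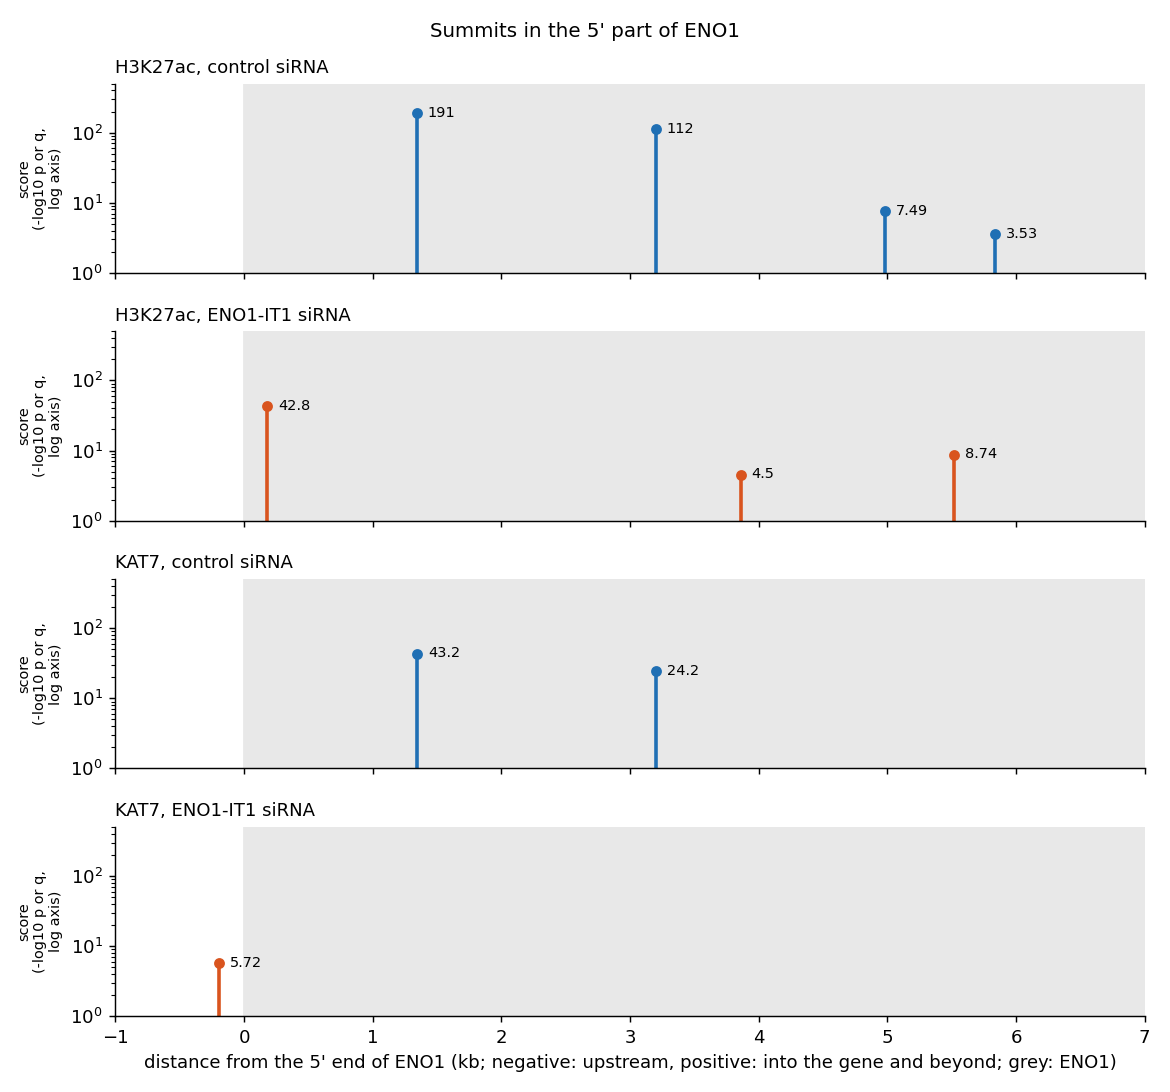
The 5′ part of ENO1, with 1 panel for each antibody list; the horizontal axis gives distance from the 5′ end in kb (grey the gene) and the vertical axis the score on a log axis, with each score printed. The control H3K27ac and KAT7 summits share their positions at 1341 to 1347 bp and 3202 to 3203 bp, where the knockdown panels are empty. The knockdown H3K27ac summit scoring 42.8 stands 178 bp inside the extent used for the gene.

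Control H3K27ac summits with scores as high as these usually had a close counterpart after knockdown. Of the 88 control H3K27ac summits scoring at least 100, 2 had no knockdown H3K27ac summit within 500 bp (2.27%), and both were those inside ENO1. The median distance of the 88 to the knockdown list was 10.5 bp, and after the 1163 and 659 bp at ENO1 the next largest was 487 bp. The score minimum was chosen with the scores of the ENO1 summits known. At a score of at least 50, 30 of 305 had no counterpart (9.84%), the ENO1 summits among them. Over windows of 60 kb across chromosomes 1 to 22 and X, the highest control H3K27ac summit had no knockdown counterpart in 16.8% of the 12315 windows that held one, and the highest knockdown summit no control counterpart in 25.2% of 13917. The ENO1 window belonged to both groups.

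Control KAT7 summits scoring at least 20 that coincided with H3K27ac also mostly had a counterpart after knockdown. In the control KAT7 list 751 summits scored at least 20, and 56.7% of them had no knockdown KAT7 summit within 500 bp. Among the 272 of these with a control H3K27ac summit within 500 bp, the share was 2.94%, or 8 summits. The ENO1 summits were 2 of these 8, and the one at 8937804 had the highest score of them, ahead of 39.3 on chromosome 9 at 136429000. Here too the score minimum was chosen with the scores of the ENO1 summits known, and no other minimum was computed. Both were also known to have H3K27ac, the property that defines the subset. A control KAT7 summit within 10 bp was listed at 26 of the 88 control H3K27ac summits scoring at least 100 (29.5%), both ENO1 summits included. The 10 bp limit was not set independently of the 6 and 1 bp at ENO1. The median distance of the 88 to the control KAT7 list was 21.5 bp.

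**Figure D3:**
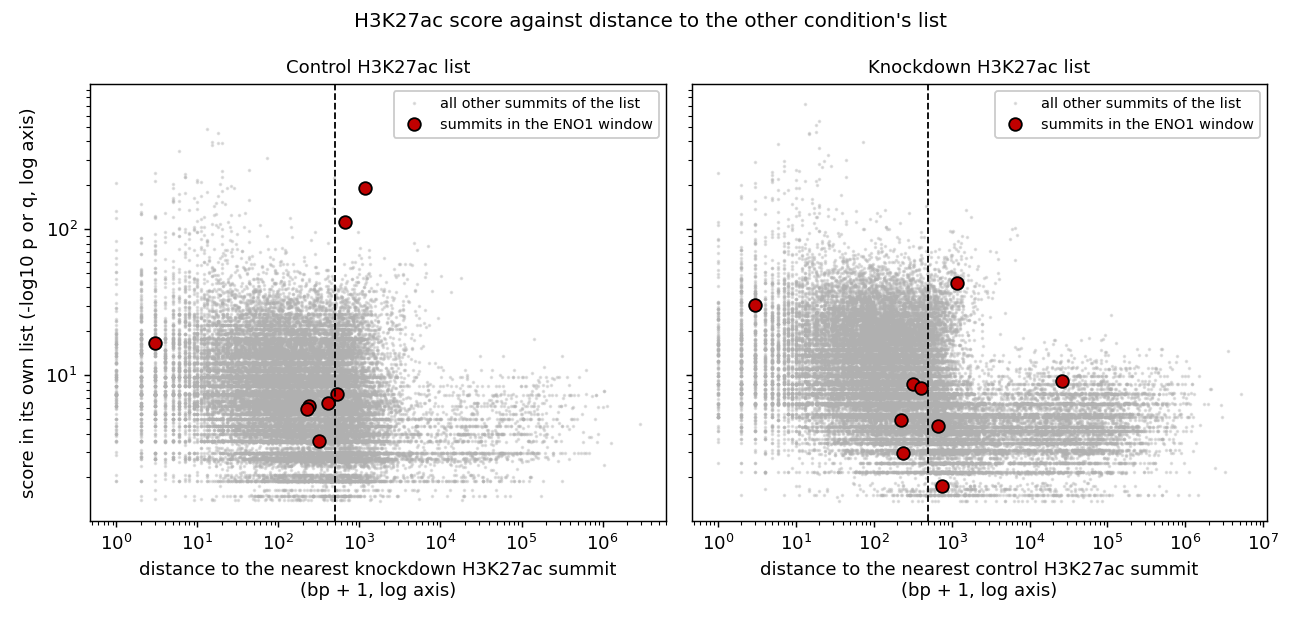
Score of each H3K27ac summit (vertical, log axis) against its distance to the nearest H3K27ac summit of the other condition (horizontal, bp plus 1, log axis), for the control list on the left and the knockdown list on the right; red points are the ENO1 window, grey points all other summits, and the dashed line marks 500 bp. On the left the ENO1 summits scoring 191 and 112 stand to the right of the line, at 1163 and 659 bp, above every other summit on that side.

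Counted over the whole window, the shares of members without a counterpart had wide intervals around the shares of the whole lists. Of the 8 control H3K27ac summits, 3 had no knockdown summit within 500 bp, 37.5% with an exact Clopper-Pearson 95% interval of 8.52 to 75.5%, against 28.1% of the whole list. They were those at 8937810, 8935949 and 8934170, the last of which lay 535 bp from a knockdown summit, just past the limit. Of the 9 knockdown H3K27ac summits, 4 had no control summit (44.4%, interval 13.7 to 78.8%), against 35.7%. For KAT7 the counts were 2 of 3 in the control (9.43 to 99.2%) against 93.4% of its list, and 1 of 2 after knockdown (1.26 to 98.7%) against 67.8%. All 4 intervals contain the share of the whole list. They cover counting error only and take neighbouring summits as independent. With 2 to 9 summits each they are too wide to tell whether the window differs from its list. KAT7 was within 500 bp of 2 of the 8 control H3K27ac summits (3.19 to 65.1%), against 14.8% of the list, and of 2 of the 9 knockdown summits (2.81 to 60%), against 14.3%. No position of the window was listed in all 4 antibody lists within 500 bp. Over all 208318 summits of these lists 4.84% were in all 4. Of the 22 members 16 were in 2 lists, 3 in 3 lists and 3 in a single list, against 21.7%, 4.28% and 69.1% of all summits, most of which belong to the long control KAT7 list.

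H3K27ac upstream of ENO1 was listed near the same positions in both conditions, without KAT7. The highest of these summits were at 8959856 in the control and 8959858 after knockdown, 2 bp apart and 20705 and 20707 bp upstream. Their scores were 16.6 (rank 4315 of 29429) and 30.4 (rank 2297 of 31839), each the highest of its list outside the gene. Beside them were 8959008 in the control (score 5.89) and 8958785 after knockdown (score 4.97), 223 bp apart. Nearer to the gene, control summits at 8949832 (score 6.15) and 8950506 (score 6.47) stood 240 and 409 bp from knockdown summits at 8949592 (score 2.93) and 8950915 (score 8.2). A knockdown summit at 8951253, 12102 bp upstream, had the lowest score of the window, 1.74, and its nearest control summit was 747 bp away. All 4 control summits upstream of the gene thus had a knockdown counterpart within 500 bp and 1 of the 4 inside the gene did, where 28.1% of the whole list had none. This rests on the distance, since those inside were 320, 535, 659 and 1163 bp from a knockdown summit, and at 1000 bp 3 of the 4 had a counterpart. The nearest KAT7 summit to any upstream H3K27ac summit was over 10 kb away in either condition. In the control, the score of 191 inside the gene stood beside 16.6 at the highest upstream summit, and after knockdown 42.8 stood beside 30.4. A score of this kind is not linear in enrichment, so no ratio of these was taken.

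At a site past the 3′ end of ENO1, KAT7 was listed in both conditions and H3K27ac after knockdown only. The knockdown KAT7 summit at 8904169 had a score of 30.3 (rank 2572 of 24611), higher than 89.5% of its list, and lay 16890 bp past the 3′ end. The knockdown H3K27ac summit at 8904161 was 8 bp away, with a score of 9.18. In the control, KAT7 was listed at 8904157, 12 bp from the knockdown KAT7 summit, with a score of 2.68 that 52298 summits of that list had. No control H3K27ac summit was nearer than 8878124, 26037 bp from the knockdown one. Of the 2338 knockdown KAT7 summits that scored at least 20 and had knockdown H3K27ac within 500 bp, 22.5% had no control H3K27ac summit within 500 bp. With a control KAT7 summit within 500 bp as well, as at this site, the share was 18.3% of 2061, or 378 summits.

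**Figure D4:**
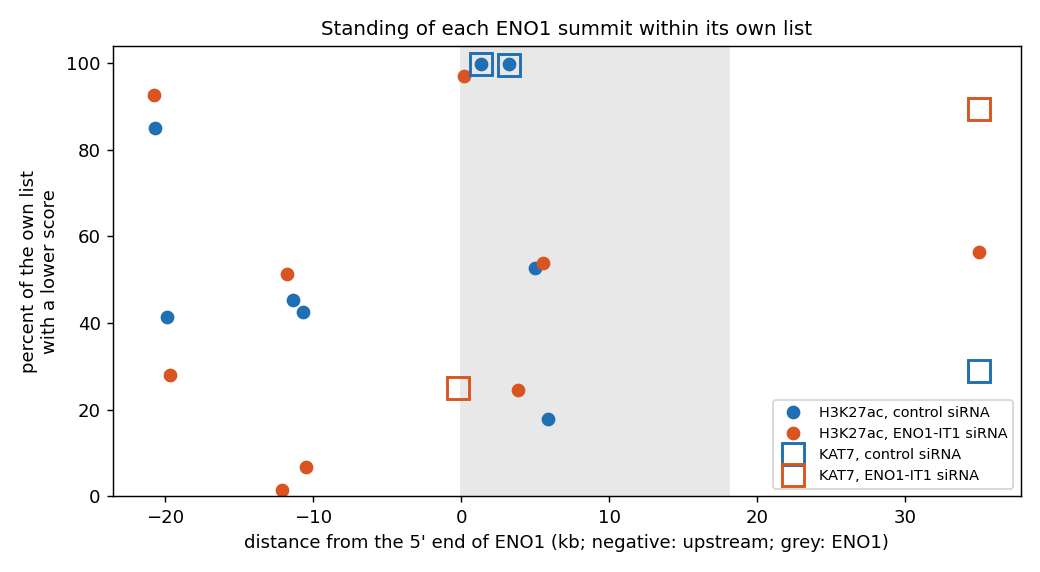
Percent of its own list that scored lower (vertical) for each of the 22 summits, by distance from the 5′ end of ENO1 in kb (horizontal, negative upstream, grey the gene); filled circles are H3K27ac, open squares KAT7, blue control and orange knockdown. The control H3K27ac and KAT7 summits 1341 to 3203 bp inside the gene stand at 99.6% to 99.9%, the knockdown H3K27ac summit at the 5′ end at 97%, and the knockdown KAT7 summit beside it at 24.9%.

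The window was rich in H3K27ac summits and not in control KAT7 summits. Among 45019 windows of 60 kb with a summit of any list, 1.03% held at least 8 control H3K27ac summits and 0.722% at least 9 after knockdown. These were 463 and 325 windows. Most of the 45019 held no H3K27ac summit, since 12315 held any in the control and 13917 any after knockdown. The H3K27ac shares are therefore smaller than they would be among windows with the mark. At least 3 control KAT7 summits were found in 48.9% of the 45019 windows and at least 2 knockdown KAT7 summits in 10.6%. The means per window were 0.653, 0.706, 2.7 and 0.542 summits. The limits of the window were given by position, and the members just inside the upper limit, at 8959856 and 8959858, were followed 524 bp beyond the former by a control H3K27ac summit at 8960380 (score 9.87). The next knockdown H3K27ac summit on that side was at 9120177, 160319 bp beyond the last member. On the lower side the nearest summits outside were a weak control KAT7 summit at 8897423 (score 1.31) and H3K27ac summits at 8878124 in the control (score 7.49) and 8877482 after knockdown (score 9.93).

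The lists hold no read counts, so the depth of each library is unknown. They give summits and not the extent of peaks. A position missing from a list had no summit past the caller's limit there. A peak with its summit elsewhere could still have covered that position, which was not shown to lack the mark. RefSeq lists 4 pseudogenes of ENO1, and no source used here says how reads that align to several places were treated. The lists hold no RNA levels either, so the knockdown of ENO1-IT1 and the level of ENO1 were not measured.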

How the data were processed

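The data were 1 list of ChIP-seq summits for each of 5 samples of HCT116 cells, grouped by their titles. Per the submitters' processing notes, Bowtie, MACS2 and build hg19 were used; no source used here gives versions, options or the control for peak calling, and each list belongs to 1 sample. The score, deposited by the authors, is the -log10 of a p or q value from MACS2, with a lowest value of 1.31 to 1.38 in the antibody lists. It grows with depth and was used only within a list. Depth is unknown.

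Lists were read with Python 3.11.15, numpy 2.4.6 and pandas 2.3.3, and exact intervals came from SciPy 1.17.1. A summit counted as shared when the other list had one at most 500 bp away, and this step was checked on simulated positions. Every summit of the window is given, and outside it only the nearest, or those named as chosen by score. Windows of 60 kb were laid in phase with the ENO1 window. The members, score minimums, the 10 bp limit and motifs were chosen with earlier results of these data known. Glycolysis genes other than ENO1 were not analysed here, because the only gene table used was of GRCh38.p14. Promoter sequence is RefSeq's, matched by symbol (1 of 1).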

Additional observations from a re-analysis of the deposited data

How the results depend on the processing

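Of 63 alternative values, 41 stayed within 1.5 times of the reported count. With a score of at least 10 the window held 3 control and 2 knockdown H3K27ac summits and 1 knockdown KAT7 summit. Limited to the extent of ENO1, these counts were 4, 3 and 0. Widened by 20 kb on each side, the window held 9 control KAT7 summits. Merging and a score of at least 3 moved no count of members past 1.5 times. Unshared H3K27ac summits depended on the distance. In the control they were 7 of 8 at 100 bp, 5 at 250 bp, 1 at 1000 bp and 0 at 2000 bp, where the summits at 8937810 and 8935949 also had a counterpart. After knockdown they were 8 of 9 at 100 bp, 2 at 1000 bp, 1 at 2000 bp and 1 of 2 with a score of at least 10. For KAT7 they were 1 in the control and 0 after knockdown at 2000 bp, and 2 of 2 after knockdown with a score of at least 3 or with lists of equal length, which leave out the control summit at 8904157. Knockdown H3K27ac summits with KAT7 were 1 at 50 and at 100 bp and 0 with a score of at least 10. These changes follow from the limits applied. No replicate could be left out, and no paired analysis was possible because each group had 1 library.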
